A study of Mus musculus with 25 samples.

Results

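NAD is used up by several kinds of enzyme, and the nicotinamide they release is either recycled by NAMPT or methylated and oxidized for excretion. The genes described here are 10 listed mouse genes of these routes: the poly(ADP-ribose) polymerases (PARPs) Parp1, Parp2, Parp3, Parp9 and Parp14, the NAD glycohydrolases Cd38, Bst1 and Sarm1, and 2 genes that act on nicotinamide, Nnmt and Aox1. They were taken by symbol and joined to the Ensembl identifiers of the count files, where all 10 were found among 41388 features. Expression is given as CPM, counts scaled to a fixed library size, after normalization by the trimmed mean of M-values (TMM). Of the 10 genes, 8 reached more than 1 CPM in at least 2 libraries and were tested. Bst1 and Sarm1 did not, and are described by their counts.

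The data are RNA-sequencing libraries of whole liver from 25 male C57B/6J mice, 1 library each, aged 20 weeks. Every mouse carried Sirt1 alleles flanked by LoxP sites and received an AAV8 virus, which held either no insert (EV) or NAMPT under the hepatocyte-directed thyroxine-binding globulin promoter. The mice labelled LKO also carried Cre recombinase under the Albumin promoter, which acts in hepatocytes, and the WT mice were their littermates without it. A total of 3 WT mice were kept on chow with EV. On Western diet (WD) there were 6 WT mice with EV, 6 WT mice with NAMPT, 5 LKO mice with EV and 5 LKO mice with NAMPT, and the series lasted 12 weeks. The general treatment label names SIRT1 as the insert, whereas the sample titles give NAMPT. Groups were taken from the titles.

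The libraries held 20166175 to 32937326 gene counts. Sirt1 ran from 7.16 to 10.1 CPM in WD LKO EV, from 8.09 to 11.1 CPM in WD LKO NAMPT, from 7.99 to 9.53 CPM in WD WT EV and from 7.62 to 9.32 CPM in WD WT NAMPT. The genotypes overlapped with either vector, and the log2 difference of LKO from WT was -0.07 ± 0.10 with EV and 0.19 ± 0.11 (SE) with NAMPT (limma adjusted p = 0.990 and 0.237). Neither was called, the second goes against the direction of the label, and counts summed over all exons do not resolve the floxed part of the gene. Nampt ran from 38.3 to 54.1 CPM in WD WT EV and from 46.8 to 77.8 CPM in WD WT NAMPT, with overlapping groups (log2 fold change 0.34 ± 0.16 (SE), limma adjusted p = 0.144). In LKO mice it ran from 46.0 to 75.6 CPM with EV and from 53.9 to 126.6 CPM with NAMPT, again overlapping and not called (0.41 ± 0.16, limma adjusted p = 0.403). Among the WD WT NAMPT libraries, replicate 2 had the highest TMM factor of all (1.294), and the sample weights of the fit ran from 0.336 to 2.504 over the 25 libraries. Chow replicates 1, 2 and 3 had weights of 1.805, 2.504 and 0.608. By chi-square per degree of freedom of their counts, chow replicates 1 and 2 were the most alike pair within any group (15.6). With chow replicate 3 they gave 89.3 and 79.6. The hepatocyte marker Alb stood at 31261 CPM or more in each library.

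As background, PARPs transfer ADP-ribose from NAD to proteins or nucleic acids. PARP1, PARP2 and PARP3 are nuclear enzymes activated by DNA breaks, and PARP1 is generally held to use most of the NAD that this family spends. PARP9 and PARP14 carry macrodomains and are known as interferon-responsive genes of immune cells, and PARP9 works as a partner of the ubiquitin ligase DTX3L. CD38 and BST1 (CD157) are cell-surface enzymes that split NAD or its precursors, and SARM1 is the neuronal NADase of axon degeneration. NNMT, abundant in hepatocytes, methylates nicotinamide with S-adenosylmethionine, and aldehyde oxidase oxidizes the resulting N-methylnicotinamide to pyridones.

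The genes lie in the genome (GRCm38) partly side by side. Parp14 (ENSMUSG00000034422, chromosome 16, 35832874 to 35871544, minus strand) and Parp9 (ENSMUSG00000022906, chromosome 16, 35938470 to 35972605, plus strand) are 66.9 kb apart. Bst1 (ENSMUSG00000029082, chromosome 5, 43818886 to 43843247) and Cd38 (ENSMUSG00000029084, chromosome 5, 43868809 to 43912375) are 25.6 kb apart on the plus strand. Parp3 (ENSMUSG00000023249) lies on chromosome 9 from 106470322 to 106476949, Nnmt (ENSMUSG00000032271) on chromosome 9 from 48591877 to 48605153 and Aox1 (ENSMUSG00000063558) on chromosome 1 from 58029931 to 58106413. Parp1 (ENSMUSG00000026496) spans 180568955 to 180601253 on chromosome 1, Parp2 (ENSMUSG00000036023) 50807946 to 50821300 on chromosome 14 and Sarm1 (ENSMUSG00000050132) 78472330 to 78497754 on chromosome 11. Whether reads were counted by strand is not given in the sources used here. Parp9 shares 458 of its 4872 exonic bases with Dtx3l on the other strand, and if strand was not used, reads from that stretch cannot be assigned to 1 of them. Parp3 shares 20 of 3699 exonic bases with Rrp9, and Bst1 shares 99 of 2419 with Fbxl5. Aox1 has the paralogs Aox2, Aox3 and Aox4. The paper states that only uniquely aligned, unambiguous reads were counted, so reads that match several of these genes would be missing from its counts.

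Promoter windows (250 bases before to 50 after the start site, RefSeq, GRCm38.p6) were held for 6 of the 10 genes: Parp1, Parp2, Parp3, Cd38, Sarm1 and Aox1. The core letters of the interferon-stimulated response element, GAAA followed by any 2 bases and GAAA again, were searched on both strands. They were in 0 of these 6 windows and in 3.44% of all 32851 windows. With so low a share, 0 of 6 says nothing particular to these genes. Parp9 and Parp14 had no window and could not be searched. The 250 bases before the start site of Parp3 are shown because Parp3 is the tested gene whose chow WT EV and WD WT EV libraries did not overlap (GRCm38.p6, chr9:106476950-106477199, minus strand). Capitals mark its 16 CG dinucleotides, and the median over all windows of 300 bases was 7.
Parp3: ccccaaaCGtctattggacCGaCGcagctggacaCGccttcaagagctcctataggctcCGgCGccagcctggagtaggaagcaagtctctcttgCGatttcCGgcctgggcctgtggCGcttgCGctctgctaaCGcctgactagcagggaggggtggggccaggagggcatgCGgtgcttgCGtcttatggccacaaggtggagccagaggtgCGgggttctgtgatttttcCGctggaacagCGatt

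Levels were compared between genes per kilobase of exon (TMM-normalized CPM per kb, median over the 25 libraries). Nnmt was the highest at 30.7, followed by Aox1 at 11.4, Parp1 at 9.66, Parp9 at 9.36, Parp3 at 7.80, Cd38 at 7.33, Parp14 at 4.75 and Parp2 at 3.51. Bst1 at 0.122 and Sarm1 at 0.0899 were at the bottom. The ranges of neighbours in this order overlapped at every step down to Parp2, as did those of Bst1 and Sarm1, and only Parp2 and Bst1 were apart, with a lowest Parp2 value of 2.49 and a highest Bst1 value of 0.273. The spread over the libraries differed between genes. The highest library exceeded the lowest by 7.91-fold for Nnmt, 2.97-fold for Parp14 and 1.47-fold for Parp1.

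**Figure D1:**
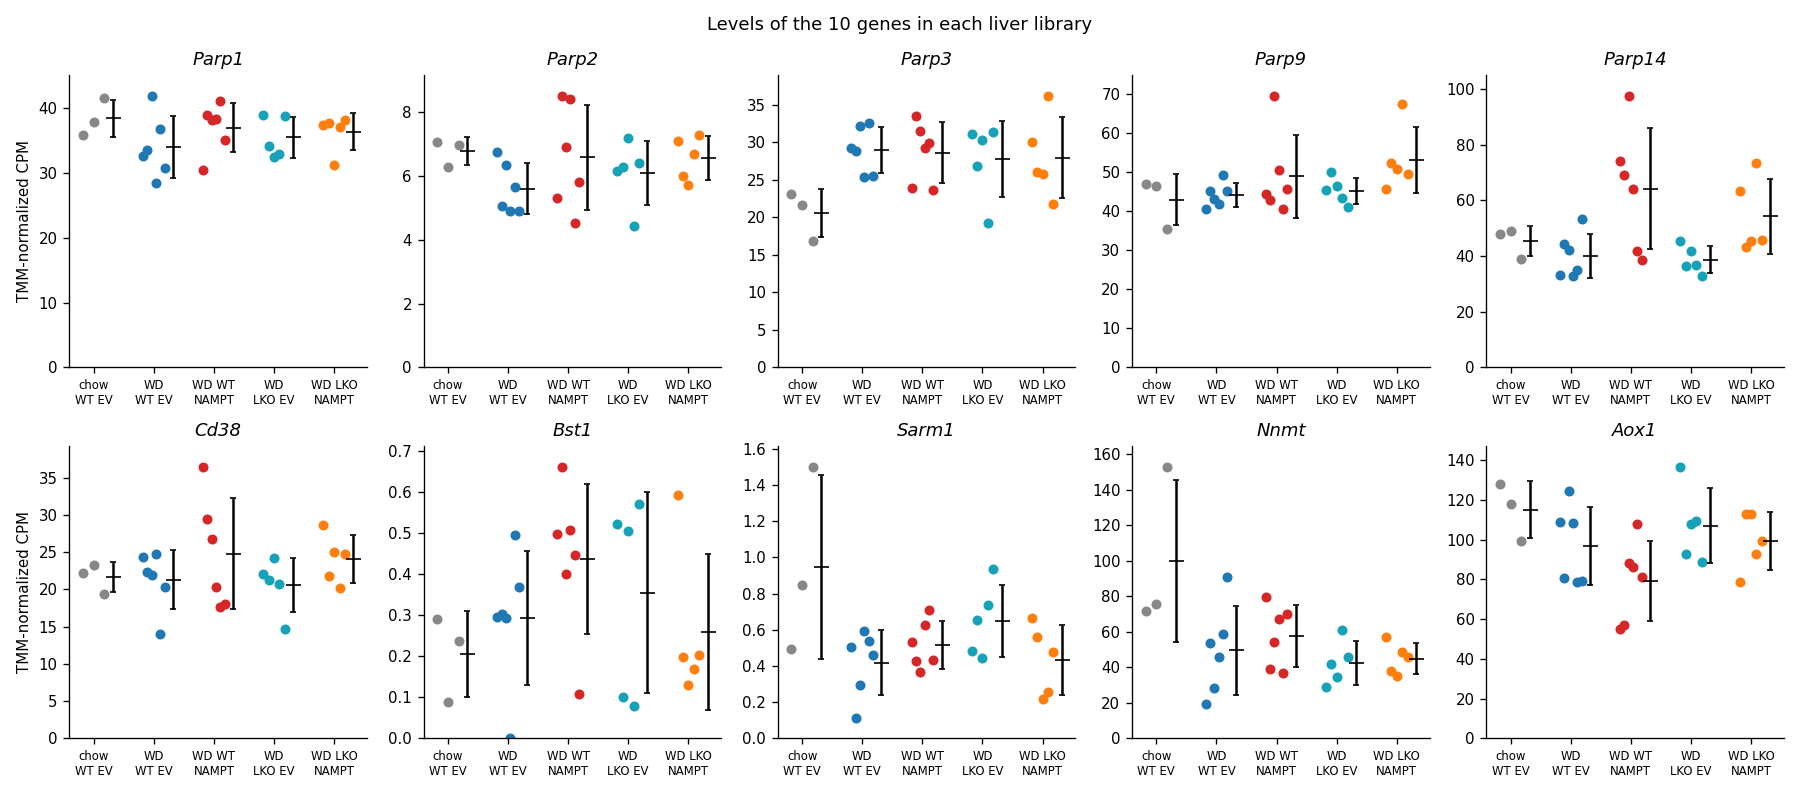
TMM-normalized CPM of each gene (y axis, from 0) in every liver library, by group (x axis: chow WT EV, then the 4 WD groups). Each point is 1 mouse and the bars give mean ± SD. Parp3 is lower in all 3 chow libraries than in the 6 WD WT EV libraries, and 4 of 6 WD WT NAMPT libraries lie above every WD WT EV library for Parp14.

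The first question was whether NAMPT overexpression in WT mice on Western diet changed the genes that consume the product of the pathway it drives. The macrodomain gene Parp14 rose, and it was 1 of 8 tested genes called (12.5% of them, against 13.4% of all 14065 genes tested). Parp14 gave 33.2, 44.2, 42.1, 32.8, 35.0 and 53.2 CPM in the WD WT EV libraries. It gave 74.1, 69.3, 97.4, 64.2, 41.8 and 38.8 CPM in the WD WT NAMPT libraries. Replicates 1 to 4 of WD WT NAMPT lay above every WD WT EV library, whereas replicates 5 and 6 lay within the range of that group, so the groups overlapped. The mean was 40.1 ± 7.98 CPM in the first group and 64.3 ± 21.8 CPM in the second (SD, n = 6 each). The log2 fold change was 0.74 ± 0.18 (SE), a 1.67-fold rise, with limma adjusted p = 0.0134. The median log2 fold change of all genes was 0.00. Without WD WT NAMPT replicate 3, the library with the highest Parp14, the log2 fold change was 0.51 and the call was lost (limma adjusted p = 0.0866). It was also lost without sample quality weights (0.63, limma adjusted p = 0.0680) and with 2 surrogate variables (0.39, limma adjusted p = 0.294). In the weighted fit, WD WT NAMPT replicates 1 to 6 had sample weights of 0.506, 0.401, 1.624, 1.853, 0.92 and 0.336. Replicate 6, with the lowest Parp14 of that group, thus had the lowest weight.

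None of the DNA-break-activated PARPs passed the test in this comparison. Parp1 ran from 28.4 to 41.8 CPM with EV (median 33.1) and from 30.5 to 41.1 CPM with NAMPT (median 38.3), a log2 difference of 0.17 ± 0.08 (SE, limma adjusted p = 0.173). Parp2, the least abundant tested gene, ran from 4.90 to 6.75 CPM with EV and from 4.51 to 8.49 CPM with NAMPT (0.31 ± 0.15, limma adjusted p = 0.160). Parp3 differed by 0.03 ± 0.12 (SE), with a 95% confidence interval from -0.22 to 0.28. Each of these pairs of groups overlapped. Parp1 was called without WD WT EV replicate 4 (0.22, limma adjusted p = 0.0474), and Parp2 without WD WT NAMPT replicate 5 (0.40, limma adjusted p = 0.0399).

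Parp9, the second macrodomain gene, did not pass the test with all libraries. It gave 40.6, 45.3, 43.1, 42.0, 49.2 and 45.1 CPM with EV and 44.3, 42.9, 69.4, 50.4, 40.6 and 45.7 CPM with NAMPT. NAMPT replicate 3 stood apart at 69.4 CPM and replicate 4 was just above the EV range, while the other 4 NAMPT libraries lay within it. The log2 difference was 0.23 ± 0.11 (SE, limma adjusted p = 0.168), and without WD WT NAMPT replicate 5 it was 0.32 and called (limma adjusted p = 0.0498). Without WD WT NAMPT replicate 3 it was 0.068 (limma adjusted p = 0.708). Its partner Dtx3l, which overlaps Parp9 on the other strand, differed by 0.03 ± 0.10 (SE, limma adjusted p = 0.891).

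The surface NADase Cd38 showed a wide range with NAMPT, at 36.4, 29.5, 26.8, 20.3, 17.6 and 17.99 CPM, against 13.96 to 24.8 CPM with EV. Replicates 1 to 3 of WD WT NAMPT lay above all EV libraries and the other 3 lay within their range. The log2 difference was 0.13 ± 0.15 (SE), with a 95% confidence interval from -0.18 to 0.44 (limma adjusted p = 0.605). With a library left out it lay between 0.022 and 0.28, uncalled in each case, and with 2 surrogate variables it was negative. Replicates 1 to 3 were also the 3 highest libraries of that group for Parp14.

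The nicotinamide-clearing genes did not pass the test either. Nnmt gave 19.3, 53.4, 28.5, 45.6, 58.7 and 91.0 CPM with EV and 79.7, 39.0, 53.9, 67.0, 36.9 and 70.0 CPM with NAMPT. All NAMPT libraries lay inside the EV range, and the log2 difference of 0.34 ± 0.27 (SE) had a 95% confidence interval from -0.21 to 0.89 (limma adjusted p = 0.412). It was 0.091 without WD WT EV replicate 1, 0.54 without WD WT EV replicate 8 and 0.63 with 2 surrogate variables, and it was called in none of these. Aox1 ran from 78.7 to 124.5 CPM with EV and from 55.1 to 107.7 CPM with NAMPT, with replicates 1 and 2 of NAMPT below every EV library. Its log2 difference was -0.16 ± 0.14 (SE, limma adjusted p = 0.465), and with a library left out it lay between -0.26 and -0.075, uncalled in each case.

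**Figure D2:**
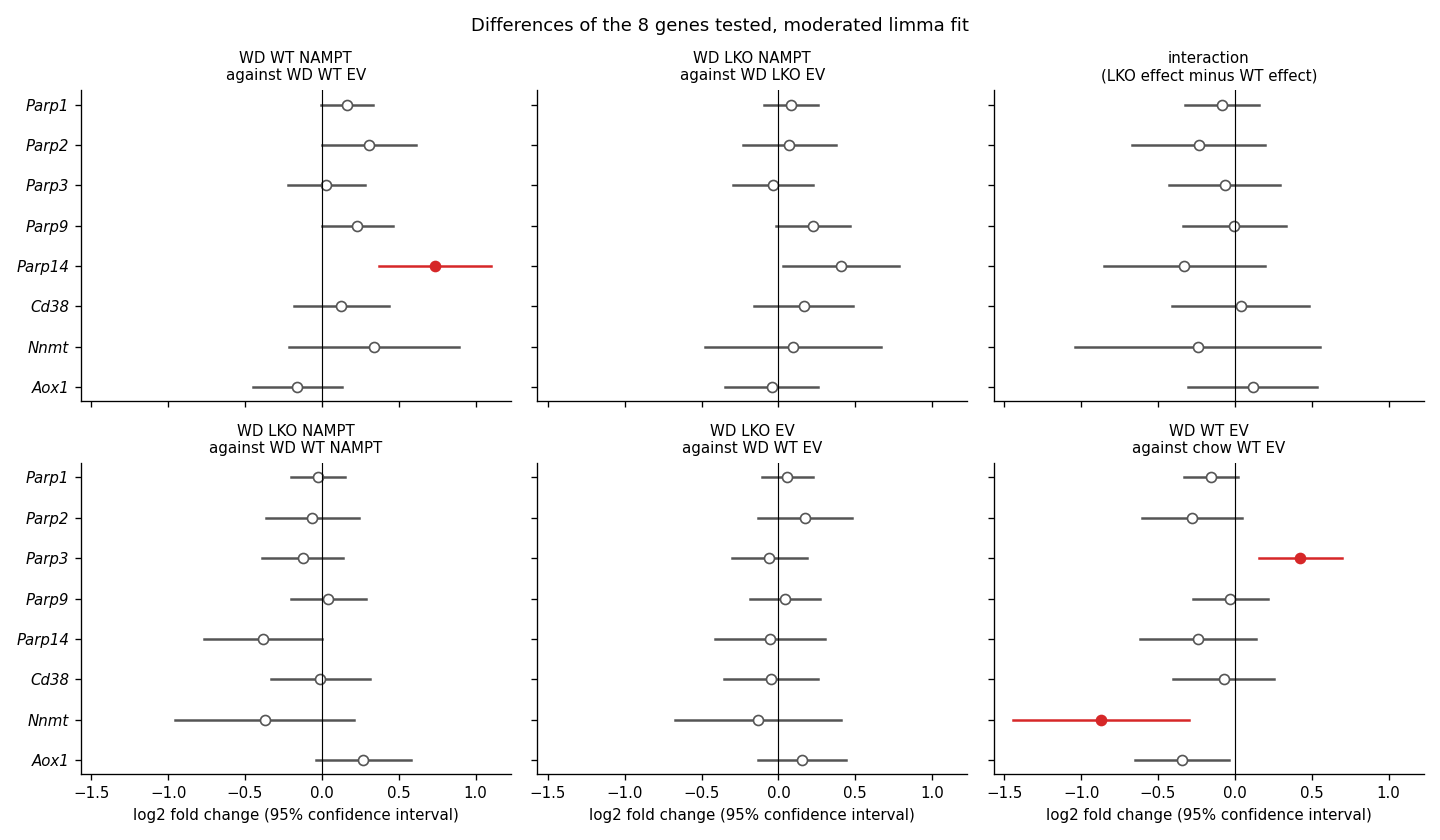
Log2 fold changes (x axis) of the 8 tested genes in 6 comparisons, with 95% confidence intervals from the moderated limma fit. Filled red points passed an adjusted p of 0.05 over all genes: Parp14 at 0.74 for NAMPT in WT mice, and Parp3 at 0.43 and Nnmt at -0.87 for diet.

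The same question was asked in the LKO mice. No gene of the 8 was called for WD LKO NAMPT against WD LKO EV (0 by limma, 0 by edgeR and 0 by DESeq2, with 1 gene at an unadjusted p under 0.05). In this comparison 0.00711% of all genes were called, and 1355 of all 14065 genes were at an unadjusted p under 0.05. Parp14 gave 45.5, 36.5, 41.8, 36.8 and 33.03 CPM with EV and 63.4, 43.4, 45.5, 73.3 and 45.8 CPM with NAMPT. Replicates 1, 4 and 5 with NAMPT lay above every LKO EV library and the other 2 within the EV range. The log2 difference was 0.41 ± 0.18 (SE), with limma adjusted p = 0.481. With a library left out it lay between 0.26 (without WD LKO NAMPT replicate 4) and 0.60 (without WD LKO NAMPT replicate 2), uncalled in each case. Parp9 ran from 41.1 to 50.0 CPM with EV and from 45.6 to 67.6 CPM with NAMPT (0.23 ± 0.12, limma adjusted p = 0.549). Dtx3l, which overlaps it, differed by 0.33 ± 0.10 (SE, limma adjusted p = 0.303). The other 6 log2 differences lay between -0.04 and 0.16.

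Whether the NAMPT effect differed between genotypes was tested with an interaction term. None of the 8 genes was called (0 by limma and 0 by edgeR, with 0 genes at an unadjusted p under 0.05 by limma, while DESeq2 gave no adjusted p for them), and 0.00711% of all genes were. Of all 14065 genes, 2986 were at an unadjusted p under 0.05 by limma. For Parp14, the NAMPT effect in LKO minus that in WT was -0.33 ± 0.25 (SE), with a 95% confidence interval from -0.85 to 0.19 (limma adjusted p = 0.459). It was -0.51 without WD WT NAMPT replicate 5 and -0.10 without WD WT NAMPT replicate 3, the ends of its range with a library left out. The call of Parp14 in WT mice and its absence in LKO mice were therefore not shown to differ. The interaction of the other 7 genes ran from -0.24 to 0.12.

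The LKO and WT genotypes were also compared at the same vector. With NAMPT, 0 of 8 genes were called by limma, edgeR or DESeq2 (1 at an unadjusted p under 0.05), against 7.96% of all genes. Of all 14065 genes, 4023 were at an unadjusted p under 0.05 by limma. Parp14 ran from 38.8 to 97.4 CPM in WD WT NAMPT and from 43.4 to 73.3 CPM in WD LKO NAMPT, so that the LKO libraries lay inside the WT range. The log2 difference was -0.38 ± 0.19 (SE, limma adjusted p = 0.173), and without WD WT NAMPT replicate 5 it was -0.57 and called (limma adjusted p = 0.0343). Without WD WT NAMPT replicate 3 it was -0.16 and without WD LKO NAMPT replicate 2 it was -0.19, and with 2 surrogate variables it was 0.021. Aox1 was 0.27 ± 0.15 (SE) higher in LKO on the log2 scale (limma adjusted p = 0.240). With EV, 0 of 8 genes were called by limma, edgeR or DESeq2 (0 at an unadjusted p under 0.05), against 0.00711% of all genes, and the log2 differences lay between -0.13 and 0.17. Of all genes, 891 were at an unadjusted p under 0.05 by limma with EV. No gene of the 8 was free of overlap between the groups in these comparisons or between the vectors, and the share of all genes without overlap was 0.960% for NAMPT in WT, 1.15% for NAMPT in LKO, 1.39% for genotype with NAMPT and 0.590% for genotype with EV. These comparisons share groups, so they are not independent of each other.

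The second question was how Western diet bore on these genes in WT mice with EV. Here 2 of 8 genes were called, Parp3 higher and Nnmt lower, against 22% of all genes. Parp3, which takes part in the repair of DNA double-strand breaks, gave 23.1, 21.6 and 16.9 CPM on chow and 29.3, 28.9, 32.2, 25.4, 32.6 and 25.5 CPM on Western diet. Every WD WT EV library lay above every chow library. These groups were free of overlap, in either direction, for 1 of the 8 genes and for 16.1% of all genes. The log2 fold change was 0.43 ± 0.13 (SE), a 1.34-fold rise (limma adjusted p = 0.0223). The call was lost without chow replicate 2 (0.55, limma adjusted p = 0.0946) and without chow replicate 3 (0.37, limma adjusted p = 0.0543). It held in 4 of the 9 alternatives, and by edgeR the log2 fold change was 0.50 (adjusted p = 0.0535). In the other 3 Western diet groups Parp3 ran from 19.3 to 36.1 CPM, which reaches into the chow range. Rrp9, with which Parp3 shares 20 exonic bases, differed by 0.05 ± 0.14 (SE, limma adjusted p = 0.843).

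Nnmt fell on Western diet. It gave 71.5, 75.9 and 152.6 CPM on chow against 19.3, 53.4, 28.5, 45.6, 58.7 and 91.0 CPM on Western diet. A total of 5 of the 6 Western diet libraries lay below every chow library, and replicate 8 at 91.0 CPM lay between the chow values. The log2 fold change was -0.87 ± 0.28 (SE), or 0.548-fold (limma adjusted p = 0.0272). The call was lost without chow replicate 2 (-1.24, limma adjusted p = 0.0713), chow replicate 3 (-0.73, limma adjusted p = 0.0616), WD WT EV replicate 1 (-0.62, limma adjusted p = 0.0748) or WD WT EV replicate 4 (-0.71, limma adjusted p = 0.0678). By edgeR the fold change was -1.02 (adjusted p = 0.0588), and over the 9 alternatives the direction was negative in all and the call held in 4. In the other Western diet groups Nnmt reached at most 79.7 CPM, and its means were 57.8 ± 17.4 (SD, n = 6) with NAMPT in WT, 42.4 ± 12.3 (SD, n = 5) with EV in LKO and 44.8 ± 8.75 (SD, n = 5) with NAMPT in LKO, against 49.4 ± 25.3 (SD, n = 6) in WD WT EV and 100.0 ± 45.6 (SD, n = 3) on chow.

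Aox1, downstream of Nnmt, gave 127.9, 117.9 and 99.6 CPM on chow and 108.9, 81.0, 124.5, 108.4, 78.7 and 78.9 CPM on Western diet. Replicates 2, 7 and 8 on Western diet lay below the chow range and the others within it. The log2 difference was -0.34 ± 0.15 (SE, limma adjusted p = 0.0943), and it was called without WD WT EV replicate 4 (-0.43, limma adjusted p = 0.0380). The remaining log2 differences with diet were -0.16 ± 0.09 for Parp1, -0.28 ± 0.16 for Parp2, -0.24 ± 0.18 for Parp14, -0.07 ± 0.16 for Cd38 and -0.03 ± 0.12 (SE) for Parp9, whose overlapping gene Dtx3l was at 0.27 ± 0.10 (SE, limma adjusted p = 0.0614). With 2 surrogate variables Parp14 (-0.52, limma adjusted p = 0.0420) and Parp1 (-0.21, limma adjusted p = 0.0340) were called lower, whereas Parp3 and Nnmt lost their calls.

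Sarm1 and Bst1 were near the limit of detection. Sarm1 had 3 to 38 counts per library, and its chow values of 0.496, 0.846 and 1.499 CPM compared with 0.506, 0.113, 0.293, 0.596, 0.537 and 0.462 CPM in WD WT EV. Chow replicate 3 was the single library above 1 CPM, and the groups overlapped. In a fit without the filter on low counts the diet difference was -1.11 ± 0.41 (SE, log2), with limma adjusted p = 0.113. Bst1 had 0 to 28 counts. It was at 0 in WD WT EV replicate 6, which allows up to 3 counts or 0.137 CPM (counting error only), and was highest in WD WT NAMPT replicate 2 at 0.660 CPM. In the fit without the filter Bst1 differed by 0.94 ± 0.59 (SE, log2) with NAMPT in WT mice (limma adjusted p = 0.424). For neither gene was a difference detectable at this depth in any of the 6 comparisons, where the lowest adjusted p of both genes was that of Sarm1 with diet.

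The rest of the PARP family was examined as a list of 11 further genes, all of which passed the filter. With NAMPT in WT mice 2 of the 11 were called, both higher, against 7.67% of all genes called higher and 5.77% called lower. Parp8 ran from 1.60 to 2.57 CPM with EV and from 1.51 to 5.05 CPM with NAMPT and rose (0.72 ± 0.23 (SE), limma adjusted p = 0.0385), and Zc3hav1, which encodes the antiviral zinc finger protein ZAP, rose by 0.23 ± 0.08 (SE, limma adjusted p = 0.0489). Each held in 2 of 9 alternatives, and both were lost by edgeR and DESeq2. The list was called in 0 genes without WD WT EV replicate 2, 6 or 7 or WD WT NAMPT replicate 1, 2 or 3, and in 1 gene without WD WT EV replicate 1, 4 or 8. The interferon-inducible Parp12 and Parp10 gave 0.32 ± 0.12 and 0.38 ± 0.16 (SE) and did not pass. With diet 1 of 11 was called, against 22% of all genes, Zc3hav1 lower with a log2 difference of -0.25 ± 0.08 (SE, limma adjusted p = 0.0284), a call that was lost without chow replicate 2 or 3 or WD WT EV replicate 1 or 4. Between the NAMPT groups Parp6 was higher in LKO (0.34 ± 0.10, limma adjusted p = 0.0432) and Parp8 lower (-0.76 ± 0.24, limma adjusted p = 0.0491), against 4.18% and 3.78% of all genes called in these directions. Parp6 was called in 0 and Parp8 in 1 of the 9 alternatives, and they were called in 3 and 4 of 11 fits with a library left out.

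Genes that assist PARPs or remove ADP-ribose formed a list of 11, of which 10 were tested. With NAMPT in WT mice the mono-ADP-ribose hydrolases Macrod1 (-0.66 ± 0.21 (SE), limma adjusted p = 0.0368) and Macrod2 (-0.57 ± 0.16, limma adjusted p = 0.0244) fell, and none rose, against 7.67% of all genes called higher and 5.77% called lower. The calls held in 1 and 4 of 9 alternatives, and neither gene was called without WD WT EV replicate 2 or 6 or WD WT NAMPT replicate 1, 2 or 3. Only 1 was called without WD WT EV replicate 7 or 8. Macrod1 reached at most 43.6 CPM with NAMPT (median 28.6) and lay between 33.8 and 61.1 CPM with EV (median 38.4). With diet 4 of 10 were called, against 10.1% of all genes called higher and 12.0% called lower. Macrod2 rose by 0.89 ± 0.19 and Nudt9, an ADP-ribose pyrophosphatase, by 0.33 ± 0.11 (SE). Parg, which degrades poly(ADP-ribose), fell by 0.24 on the log2 scale and Adprh, an ADP-ribosylarginine hydrolase, fell by 0.38. The 4 calls came to 0 without chow replicate 1 or 2 and to 2 without WD WT EV replicate 1 or 4. The rise of Macrod2 was called in all 9 alternatives and was lost only without chow replicate 1 or chow replicate 2 among the fits that left out a library.

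**Figure D3:**
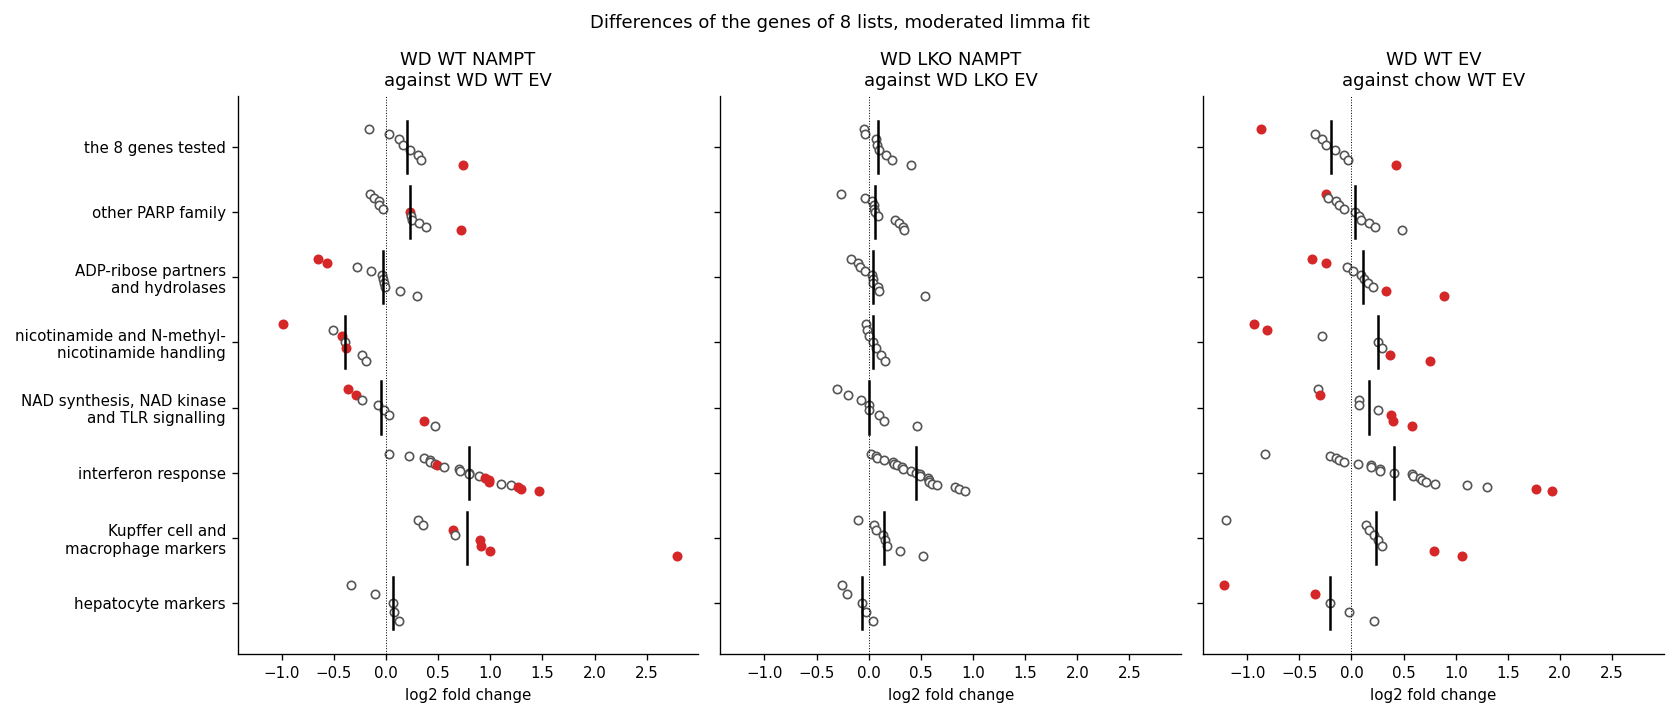
Log2 fold changes (x axis) of the tested genes of 8 lists (y axis) for NAMPT in WT mice, NAMPT in LKO mice and diet. Each point is a gene, filled red where the limma adjusted p was 0.05 or less, and the black bar is the list median. The interferon list is shifted to the right for NAMPT in WT mice (median 0.79) and 7 of its 21 genes are red there.

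The handling of nicotinamide beyond Nnmt and Aox1 was covered by 9 genes, of which 7 were tested and 6 are reported. With diet 3 of these 6 were called, 1 higher and 2 lower, against 10.1% of all genes called higher and 12.0% called lower. Among the 6 the largest diet change was in Aox3, the liver paralog of Aox1, which gave 656 to 831 CPM on chow and 305 to 592 CPM on Western diet (-0.94 ± 0.18 (SE), limma adjusted p = 0.000634). Gnmt, which uses up S-adenosylmethionine and so competes with NNMT for it, fell by 0.81 (limma adjusted p = 0.00449), with 1679 to 2240 CPM on chow and 565 to 1512 CPM on Western diet. Slc47a1, a carrier that exports N-methylnicotinamide, rose (0.37 ± 0.13, limma adjusted p = 0.0445). The calls of Aox3 and Gnmt held in all 9 alternatives and were lost only without chow replicate 2 among the fits that left out a library, whereas that of Slc47a1 held in 4 of 9 alternatives and in 3 of those 9 fits. For Aox3, Gnmt and Slc47a1, 3 of the 6, the libraries of WD WT EV and chow WT EV did not overlap, against 16.1% of all genes.

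With NAMPT in WT mice all 6 of these genes were negative and 2 were called lower, against 5.77% of all genes. Cyp2e1, which oxidizes small molecules, was lower (-0.98 ± 0.26 (SE), limma adjusted p = 0.0173), as was Slc47a1 (-0.42 ± 0.13, limma adjusted p = 0.0317). Neither was called without WD WT EV replicate 2 or 6 or WD WT NAMPT replicate 2 or 3 or by edgeR, and Slc47a1 was also lost without WD WT NAMPT replicate 1. Each was called in 2 of the 9 alternatives. In WD LKO NAMPT against WD WT NAMPT, Cyp2e1 (0.92 ± 0.27, limma adjusted p = 0.0415) and Mat1a, which makes S-adenosylmethionine (0.54 ± 0.15, limma adjusted p = 0.0336), were higher, 2 of the 6, against 4.18% of all genes. These calls held in 0 and 4 of the 9 alternatives and in 4 and 5 of 11 fits with a library left out.

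A list of 8 genes held those that make or phosphorylate NAD, the counterparts of SARM1, and the Toll-like receptor gene Tlr4 with the adaptor genes Myd88 and Ticam1. With diet 4 of the 8 were called, 3 higher and 1 lower, against 10.1% of all genes called higher and 12.0% called lower. Nmnat1, whose enzyme makes NAD from nicotinamide mononucleotide (0.40 ± 0.10 (SE), limma adjusted p = 0.00761), the NAD kinase gene Nadk (0.38 ± 0.08, limma adjusted p = 0.00146) and Ticam1 (0.58 ± 0.10, limma adjusted p = 0.000325) rose and the mitochondrial NAD kinase gene Nadk2 fell by 0.30 (limma adjusted p = 0.0281). Nmnat1, Nadk and Ticam1 were called in all 9 alternatives and lost their calls without chow replicate 1 or 2, so that 0 of the 8 were called then, and Nadk2 lost its call without these or WD WT EV replicate 1 or 4. With NAMPT in WT mice 3 of the 8 were called, against 13.4% of all genes. Nadk2 fell by 0.36 (limma adjusted p = 0.0158), Nmnat1 fell by 0.29 (limma adjusted p = 0.0470, not called in any of the 9 alternatives) and the adaptor Myd88 rose (0.37 ± 0.10, limma adjusted p = 0.0187). None of the 3 was called without WD WT EV replicate 2 or WD WT NAMPT replicate 3, and 1 was without WD WT NAMPT replicate 2. In WD LKO NAMPT against WD WT NAMPT 1 of the 8 was called, Nadk2 higher (0.45 ± 0.10 (SE), limma adjusted p = 0.0167), against 4.18% of all genes called higher. That call held in 6 of the 9 alternatives and in 7 of 11 fits with a library left out.

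Parp14 was set beside 21 interferon-responsive genes. In WD WT NAMPT against WD WT EV 7 of the 21 were called, all higher, against 7.67% of all genes called higher, and all 21 log2 differences were positive (median 0.79). The 3 largest called were Oas1a (1.47), Cxcl10 (1.29) and Isg15 (1.27). The number called was 0 without WD WT NAMPT replicate 3 or WD WT EV replicate 2, 1 without WD WT NAMPT replicate 2 or WD WT EV replicate 6, 4 without WD WT NAMPT replicate 1 or WD WT EV replicate 7, 17 without WD WT NAMPT replicate 5 and 13 without WD WT NAMPT replicate 6. It was 1 by edgeR and 6 by DESeq2. In the LKO mice all 21 were positive with NAMPT (median 0.45) and 0 were called (5 at an unadjusted p under 0.05, against 1355 of all 14065 genes). The interaction gave 0 calls in the list (2 at an unadjusted p under 0.05, against 2986 of all 14065 genes), with a median of -0.39. In each of these comparisons 0.00711% of all genes were called, so the 0 calls say nothing particular to the list. With diet 2 of the 21 were called, Cxcl9 (1.93) and Gbp2 (1.77), both higher, against 10.1% of all genes called higher. In that comparison 16 of the 21 were positive (median 0.41), whereas the log2 difference of Parp14 was -0.24. Cxcl9 was called in 8 and Gbp2 in 5 of the 9 alternatives, and each in 7 of 9 fits with a library left out.

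Library by library, the 3 highest Parp14 values of the series were in WD WT NAMPT replicates 3 and 1 and WD LKO NAMPT replicate 4, at 97.4, 74.1 and 73.3 CPM. The summed interferon list in these libraries was 1028, 645 and 832 CPM, against 375 to 547 CPM in WD WT EV. The WD WT NAMPT replicates 5 and 6, in which Parp14 was 41.8 and 38.8 CPM, had summed interferon genes of 439 and 407 CPM. By the rule of likeness used here, Pearson's r of log2 CPM over the 25 libraries, the genes nearest to Parp14 were Rnf213 (0.926), Rtp4 (0.917) and Usp18 (0.903), and those nearest to Parp9 were Irgm1 (0.775), Irf9 (0.773) and Parp12 (0.753). Usp18 and Irf9 are also in the interferon list. The points share library and group, so these values are descriptions.

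Markers of other liver cells moved with the same comparison. Of 8 Kupffer cell and macrophage markers 5 were called higher with NAMPT in WT mice and none lower, against 7.67% of all genes called higher and 5.77% called lower, as for the lists that follow. They included Marco (2.79), Adgre1 (0.91) and Csf1r (0.64), and the number called was 0 without WD WT NAMPT replicate 3. Their summed level was 307 to 444 CPM in WD WT EV, 289 to 812 CPM in WD WT NAMPT, 337 to 417 CPM in WD LKO EV and 309 to 633 CPM in WD LKO NAMPT. Recruited macrophage and monocyte markers were called higher in 4 of 7 genes (6.07 to 41.9 CPM summed with EV, 4.15 to 211 CPM with NAMPT), neutrophil markers in 3 of 5 tested genes, with Ly6g at 0 or at most 2 counts in every library, and stellate cell markers in 3 of 6. Of these 3 lists, the first 2 lost all their calls without WD WT NAMPT replicate 3, and the recruited and stellate lists without WD WT EV replicate 2. In the recruited, neutrophil and stellate lists 1 gene each was called without WD WT EV replicate 6, in the neutrophil list 1 without WD WT EV replicate 2, in the stellate list 1 without WD WT NAMPT replicate 2 or 3, and in the recruited list 7 without WD WT NAMPT replicate 5 or 6. Of 5 endothelial markers 1 was higher and 1 lower, and no B cell, T and NK cell or cholangiocyte marker was called. Over the 9 alternatives the Kupffer cell and macrophage calls held in 5 to 7 and the recruited calls in 2 to 7. The neutrophil calls held in 4 to 7, the stellate calls in 2 to 4 and each endothelial call in 2. Hepatocyte markers were called in 0 of 5 (0 by edgeR, 1 by DESeq2, 1 at an unadjusted p under 0.05, against 4260 of all 14065 genes). The Kupffer cell and macrophage sum was 812, 794 and 716 CPM in WD WT NAMPT replicates 3, 1 and 2, the 3 highest of the series and also the 3 highest libraries of that group for Parp14. In WD LKO NAMPT replicate 4 Parp14 was 73.3 CPM while the Kupffer cell and macrophage sum was 387 CPM, within the WD WT EV range. In WD LKO NAMPT against WD WT NAMPT, where Parp14 was -0.38, all 8 Kupffer cell and macrophage markers were negative and 2 were called lower, Csf1r (-0.56) and Marco (-2.14), against 3.78% of all genes called lower. All tested recruited, neutrophil and stellate markers were negative there too, with Itgam (-1.27), Csf3r (-1.31) and Pdgfrb (-0.61) called. Each of these 5 calls held in no more than 3 of the 9 alternatives. In whole liver, more cells of a type and more RNA per cell cannot be told apart, and the part of these markers in the Parp14 differences was not tested.

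**Figure D4:**
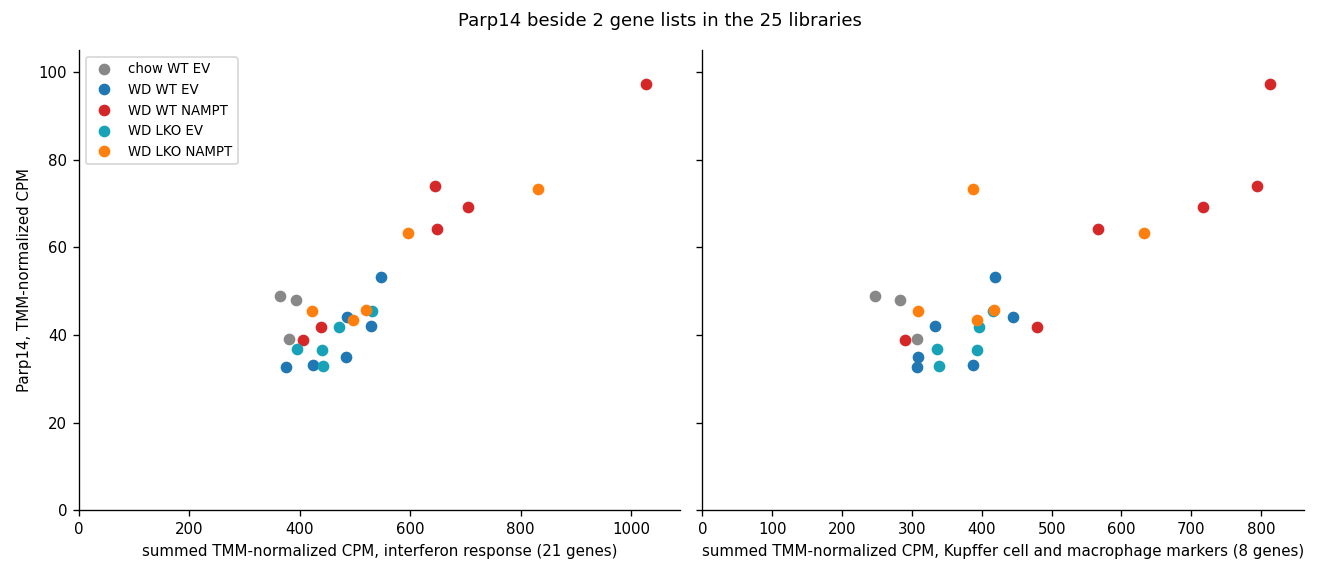
Parp14 (y axis, TMM-normalized CPM) against the summed CPM of 21 interferon-responsive genes (left) and of 8 Kupffer cell and macrophage markers (right), 1 point per library, colored by group. The libraries with the highest Parp14, WD WT NAMPT replicates 3 and 1 and WD LKO NAMPT replicate 4, have interferon sums of 1028, 645 and 832 CPM, and macrophage sums of 812, 794 and 387 CPM.

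Beside the changes of Parp3 and Nnmt, some marker genes were called with diet, against 10.1% of all genes called higher and 12.0% called lower. The hepatocyte genes Cps1 (-1.22 ± 0.25 (SE), limma adjusted p = 0.00117) and Fgb (-0.35 ± 0.13, limma adjusted p = 0.0481) were lower on Western diet, 2 of 5 tested, and the macrophage genes Cd68 (0.79) and Cd5l were higher, 2 of 8. Of the other markers, Nkg7 of T and NK cells (3.36, 1 of 3 tested), Ly6c2 of monocytes (1.45, 1 of 7) and Lrat (0.54) and Col3a1 (1.11) of stellate cells (2 of 6) were higher, and Cd79b of B cells (-0.79, 1 of 4) and Kdr of endothelial cells (-0.20, 1 of 5) were lower. The whole T and NK cell list summed to 1.16 to 3.63 CPM on chow, with Nkg7 at 0 in a chow library, and to 2.06 to 6.79 CPM in WD WT EV. The recruited macrophage and monocyte list summed to 4.05 to 6.75 CPM on chow and 6.07 to 41.9 CPM in WD WT EV. No neutrophil or cholangiocyte marker was called. Cps1 and Lrat were called in all 9 alternatives and in all 9 fits with a library left out, Cd5l in 7 and 7, Nkg7 in 6 and 7, Fgb in 5 and 3, Col3a1 in 3 and 5, Cd79b in 3 and 4, Cd68 in 2 and 4, Kdr in 2 and 2 and Ly6c2 in 2 and 1. The summed hepatocyte markers ran from 62888 to 76988 CPM on chow and from 51436 to 67446 CPM in WD WT EV. The part of these markers in the diet differences was not tested. The genes most like Nnmt over the 25 libraries were Ass1 (r = 0.922), Etnppl (0.918) and Agxt (0.915), liver enzymes of the urea cycle, phosphoethanolamine breakdown and glyoxylate disposal. Those most like Parp3 were Nans (0.858), Aen (0.837) and Cdk11b (0.820), those most like Cd38 were Stk17b (0.870), Abi1 (0.863) and Agps (0.859), and those most like Aox1 were Abcc3 (0.805), Tex2 (0.796) and Akap1 (0.781). For Parp1 they were Ccdc9 (0.810), Smdt1 (0.805) and Raly (0.795), and for Parp2, at no more than 360 counts per library, Arpin (0.732), Akap12 (0.680) and Snrpd1 (0.678).

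Group means were ordered differently from gene to gene, and neighbouring groups in each order overlapped for all 10 genes. Chow had the highest mean for Parp1, Parp2, Sarm1, Nnmt and Aox1 and the lowest for Parp3, Parp9 and Bst1. WD WT NAMPT had the highest mean for Parp14, Cd38 and Bst1 and the lowest for Aox1. WD LKO NAMPT had the highest mean of Parp9 at 53.2 ± 8.43 CPM (SD, n = 5), with 48.9 ± 10.6 CPM (SD, n = 6) in WD WT NAMPT and 42.9 ± 6.52 CPM (SD, n = 3) on chow.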

How the data were processed

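Liver RNA was sequenced as poly-A selected single-end libraries. Per the labels the authors aligned reads with STAR (2.5.1a) to GRCm38 and counted them per gene with featureCounts (1.4.6-p5). Each library was deposited as raw counts per gene, and the authors also deposited CPM and RPKM values derived from them, which were used only to check the counts. Genes above 1 CPM in at least 2 libraries were kept and 4 rRNA genes left out, which left 14065 genes. Counts were TMM-normalized (edgeR 4.0.16) and fitted over all 25 libraries with voom, sample quality weights and moderated statistics (limma 3.58.1, R 4.3.3). Adjusted p-values are Benjamini-Hochberg values over all genes, called at 0.05 or less. The named genes are the 10 listed genes and the called members of the accompanying lists, and 124 of 125 listed genes were matched. Genes and lists were chosen with earlier results of these data known. Alternatives were edgeR's quasi-likelihood test, DESeq2 (1.42.0), 2 other scalings, no filter, no quality weights, the compared groups alone, a replicate block, 2 surrogate variables (sva 3.50.0) and leaving out each library. The scripts were tested on simulated data. Each mouse gave 1 library. Of the genes in the lists, 1 is not reported here.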

Additional observations from a re-analysis of the deposited data

Results flagged for a closer look

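In each group of 5 or 6 libraries, the gap between an extreme library and its nearest neighbour was divided by the range of the group and compared with Dixon's 95% critical value. Of 40 gene and group combinations 3 exceeded it, and chance alone gives about 1 in 20, or 2. Parp1 in WD LKO NAMPT replicate 3 was low at 31.3 CPM, with the nearest library at 37.1 CPM (ratio 0.847). Parp9 in WD WT NAMPT replicate 3 was high at 69.4 CPM, with the nearest at 50.4 CPM (ratio 0.659), and the same library had the highest Parp14 and interferon sum of the series. Bst1 in WD LKO NAMPT replicate 1 was high at 0.593 CPM, with the nearest at 0.204 CPM (ratio 0.843), which rests on 17 counts.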

How the results depend on the processing

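The count of tested genes called with NAMPT in WT was 1, and became 3 with library size only, 0 without quality weights and 0 with 2 surrogate variables. Leaving out 1 library gave 0 to 3. For diet the count was 2, and became 0 by edgeR, 0 without the filter, 0 without quality weights, 1 with library size only and 1 with the compared groups alone. With 2 surrogate variables it stayed at 2 but for other genes, Parp1 and Parp14 in place of Parp3 and Nnmt. Leaving out 1 library gave 0 to 2, and 0 to 1 for genotype with NAMPT, where the count was 0. The causes were not tested. Over all genes the calls, 1890 for NAMPT in WT, ran from 63 to 2281 over the alternatives and from 132 to 2844 with a library left out, and those for diet, 3101, from 1201 to 3842 and from 834 to 3175. For genotype with NAMPT, 1120, they ran from 12 to 1058 and from 0 to 2290, and for the interaction, 1, from 0 to 66 and from 1 to 677. For NAMPT in LKO, 1, they ran from 0 to 6 and from 0 to 4, and for genotype with EV, 1, from 0 to 15 and from 0 to 5. With library size only, the median log2 difference of all genes was 0.16 for NAMPT in WT, -0.12 for genotype with NAMPT and -0.15 for the interaction, and the share of higher calls moved from 57.1% to 88.1% and from 52.5% to 24.3%, and for diet from 45.6% to 32.6%. With upper-quartile factors it was 67.1% and 32.6% in the first 2. The replicate numbers were not used as pairs of mice in the fit. After group means were subtracted, same-numbered libraries correlated over 0.1 in 3 of 4 pairs for NAMPT in WT and 1 of 5 for NAMPT in LKO. They did so in 1 of 5 for genotype with NAMPT, 2 of 3 for genotype with EV and 0 of 2 for diet. So few pairs cannot decide whether the mice were paired. With the replicate block Parp14 rose by 0.74 (limma adjusted p = 0.0224), while Nnmt differed by 0.85 for NAMPT in WT (limma adjusted p = 0.0604) and -1.62 for diet (limma adjusted p = 0.000704).

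Of the log2 differences recomputed under the alternatives other than leaving out a library, 369 kept direction and side of the threshold, 12 lost and 4 gained a call, and 47 changed sign, none of them called in the original fit. DESeq2 gave the 8 genes no adjusted p for the interaction, where only directions were compared. The log2 difference that changed sign was as follows. With 2 surrogate variables it was -0.089 (Parp3) and -0.21 (Cd38) for NAMPT in WT, 0.12 (Parp3) and -0.059 (Cd38) for NAMPT in LKO, 0.084 (Parp1), 0.20 (Parp2), 0.13 (Parp3), 0.021 (Parp14) and 0.031 (Cd38) for genotype with NAMPT and 0.027 (Parp1), 0.10 (Parp2), 0.21 (Parp3), 0.16 (Parp9) and 0.080 (Parp14) for the interaction. By DESeq2 it was -0.018 (Parp3) for NAMPT in WT, 0.0037 (Parp3) for NAMPT in LKO, 0.049 (Parp9) for diet and 0.022 (Parp3), 0.080 (Parp9) and -0.00025 (Cd38) for the interaction. By edgeR it was -0.016 (Parp3) for NAMPT in WT, 0.0099 (Parp3) for NAMPT in LKO, 0.042 (Parp9) for diet and 0.026 (Parp3) and 0.086 (Parp9) for the interaction. With library size only it was 0.0033 (Aox1) for NAMPT in WT, -0.075 (Parp9) for genotype with NAMPT and -0.084 (Cd38) and -0.040 (Aox1) for the interaction. Without the filter it was 0.022 (Parp9) for diet and 0.034 (Parp9) for the interaction. Without quality weights it was -0.018 (Parp3) for NAMPT in WT, 0.0090 (Parp3) for NAMPT in LKO, 0.0012 (Parp2) for genotype with NAMPT, 0.052 (Parp9) for diet and 0.027 (Parp3) and 0.098 (Parp9) for the interaction. With the replicate block it was -0.034 (Parp3) for NAMPT in WT, 0.0035 (Parp2) for genotype with NAMPT, -0.022 (Parp1), 0.023 (Parp14), 0.51 (Nnmt) and -0.068 (Aox1) for genotype with EV, 0.16 (Cd38) for diet and 0.031 (Parp3) for the interaction. With upper-quartile factors it was -0.013 (Parp9) for genotype with NAMPT and -0.022 (Cd38) for the interaction. With a library left out, 55 values changed sign and 533 kept direction and side of the threshold, with 7 calls lost and 5 gained. For NAMPT in WT the ranges were -0.0082 to 0.064 (Parp3). For NAMPT in LKO the ranges were -0.016 to 0.16 (Parp2), -0.14 to 0.086 (Parp3), -0.040 to 0.23 (Nnmt) and -0.15 to 0.012 (Aox1). For genotype with NAMPT the ranges were -0.075 to 0.0042 (Parp1), -0.15 to 0.016 (Parp2), -0.050 to 0.20 (Parp9) and -0.17 to 0.087 (Cd38). For genotype with EV the ranges were -0.11 to 0.042 (Parp3), -0.00095 to 0.083 (Parp9), -0.11 to 0.015 (Parp14), -0.16 to 0.071 (Cd38) and -0.38 to 0.071 (Nnmt). For diet the ranges were -0.081 to 0.12 (Parp9) and -0.12 to 0.035 (Cd38). For the interaction the ranges were -0.17 to 0.057 (Parp3), -0.095 to 0.15 (Parp9), -0.12 to 0.15 (Cd38) and -0.44 to 0.0035 (Nnmt). Depth limits Bst1 and Sarm1, at no more than 28 and 38 counts.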
